A study of Mus musculus with 5 samples.

Results

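The interferon-inducible GTPases described here are 10 mouse genes of 2 families: the guanylate-binding proteins Gbp2, Gbp3, Gbp4, Gbp5 and Gbp7, and the immunity-related GTPases Iigp1, Irgm1, Irgm2, Igtp and Tgtp2. They were taken by gene symbol from the 55357 genes counted, and all 10 were found once. The set was selected on an earlier result of these data, in which an endothelial cluster with Iigp1 among its leading genes held many barcodes of one frail library and few of the other. Their transcripts were measured in the tibialis anterior, a fast hind-limb muscle, of female C57BL/6 mice aged 26 months, with 1 library of 10x Chromium 3′ transcript counts per animal. The 2 frail libraries come from mice whose 31-item frailty index, a score of accumulated deficits, was at least 0.18, and the 3 control libraries from mice below that value. All animals were of the same strain, sex and age, none carried a transgene according to the labels, and the series text counts only animals left after quality filtering. The series text speaks of cells released by enzymes and the sample protocol of sorted nuclei, and because it is unclear which was loaded the units counted are called barcodes.

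Both families are large GTPases that vertebrate cells make in response to interferons. The guanylate-binding proteins assemble on the vacuoles and membranes of invading bacteria and parasites. Iigp1 and Tgtp2 are effector GTPases that disrupt the vacuole membrane, whereas Irgm1, Irgm2 and Igtp are regulators that keep the effectors off the cell's own membranes. Interferon gamma acts on target genes through the gamma-activated site, and type I interferons act mainly through the interferon-stimulated response element, which Irf1 can also bind. Endothelial cells respond to both interferons, and in muscle they line the dense capillary bed.

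The genes lie in few clusters (GENCODE vM21 on GRCm38). On chromosome 3, Gbp5 (142493978 to 142522344), Gbp7 (142530342 to 142550149), Gbp3 (142560026 to 142573209) and Gbp2 (142620602 to 142638008) are neighbours on the plus strand. Gbp4 lies on chromosome 5 (105115767 to 105139586, minus strand), inside the annotated bounds of Gbp8 and Gbp9. Irgm1 (48861968 to 48871683) and Tgtp2 (49057194 to 49064206) are on the minus strand of chromosome 11, Igtp (58199556 to 58207591) and Irgm2 (58199618 to 58222782) overlap on its plus strand, and Iigp1 is on chromosome 18 (60376027 to 60392634).

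Counts at overlapping genes, and between near-identical copies, depend on how the reads were assigned. Of the 50-base stretches in the last 500 bases of the annotated Tgtp2 transcripts, 73.7% also occur in Tgtp1, so the values of these copies are uncertain. The same share was 14.2% for Gbp4 against all other genes and at most 3.55% for the other 8 genes.

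The DNA just upstream of the genes is shown from RefSeq promoters of 300 bases on GRCm38.p6 (250 before to 50 after the start of transcription). Whether these sequences bear on the levels given below was not tested. Of the 10 genes, 8 had an entry. Each stretch begins 55 bases before the first match to the response element, so that the sequences can be read against each other from that point. Capitals mark every match in the stretch to the response element (GAAANNGAAA, or TTTCNNTTTC on the other strand) or to the gamma-activated site (TTCNNNGAA, which reads alike on both strands).
Gbp5 (chr3:142496714-142496798, plus strand): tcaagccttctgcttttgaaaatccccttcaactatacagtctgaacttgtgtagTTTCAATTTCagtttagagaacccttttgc
Gbp7 (chr3:142530228-142530312, plus strand): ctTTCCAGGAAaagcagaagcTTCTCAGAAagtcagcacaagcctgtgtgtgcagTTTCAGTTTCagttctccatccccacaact
Gbp3 (chr3:142559944-142560028, plus strand): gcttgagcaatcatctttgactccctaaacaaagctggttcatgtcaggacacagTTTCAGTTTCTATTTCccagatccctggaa
Gbp2 (chr3:142620549-142620633, plus strand): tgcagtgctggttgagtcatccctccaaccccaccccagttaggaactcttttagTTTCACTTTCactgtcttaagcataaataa
Irgm1 (chr11:48871421-48871505, minus strand): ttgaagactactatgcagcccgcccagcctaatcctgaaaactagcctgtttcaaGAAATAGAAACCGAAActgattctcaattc
Tgtp2 (chr11:49064253-49064337, minus strand): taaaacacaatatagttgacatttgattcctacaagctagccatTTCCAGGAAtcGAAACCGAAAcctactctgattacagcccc
Igtp (chr11:58199467-58199551, plus strand): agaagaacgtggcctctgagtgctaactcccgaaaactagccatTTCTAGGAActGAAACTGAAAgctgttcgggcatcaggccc
Irgm2 (chr11:58214858-58214942, plus strand): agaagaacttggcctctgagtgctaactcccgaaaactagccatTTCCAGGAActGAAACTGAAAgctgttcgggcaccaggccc

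A match to the response element was present for all 8 genes with a promoter entry, against 3.44% of all 32851 promoters of this length. Gbp3 has 2 promoters in the table, and the second holds no match. A gamma-activated site was present for 5 of the 8 genes (Gbp5, Gbp7, Tgtp2, Igtp and Irgm2), against 8.30% of all promoters. Both motifs occurred in 0.454% of all promoters, and within 30 bases of each other in 0.161%. In Tgtp2, Igtp and Irgm2 the gamma-activated site begins 11 bases before the response element, at −81, −45 and −75 from the start. The sites of Gbp5, at −245 and −52, lie outside the stretch shown. The chromosome 3 genes carry the response element in the TTTC orientation and the chromosome 11 genes in the GAAA orientation. In Gbp3 and Irgm1 a pair of matches overlap. Aligned without gaps on the response element, the stretches of Igtp and Irgm2 share 82 of 85 bases, and no other pair shared more than 51. A match describes letters and was not tested as a binding site.

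Transcripts were counted as UMIs, unique molecular identifiers, and a level is given as CPM, the UMIs of a gene in a set of barcodes scaled to 1000000 UMIs of that set. Because 3′ counts do not follow transcript length, levels are compared between libraries and sets and not between genes. Barcodes with at least 200 genes and at most 10% mitochondrial transcripts were kept. A barcode was called endothelial when it held Cdh5, the vascular cadherin, together with Gpihbp1 (capillary lipase anchor), Rbp7 (a retinol-binding protein of capillaries and arterioles), Gja5 (an arterial gap junction protein) or Vwf (von Willebrand factor, common in veins). Pdgfra marks fibro-adipogenic cells, Rgs5 mural cells and C1qa macrophages, and a barcode with more than 1 of the 4 lineage markers was put in no set. This left 1480 and 2348 endothelial barcodes in frail 1 and 2, and 1370, 1000 and 868 in control 1, 2 and 3. They are a minority of the Cdh5-positive barcodes: 57.4% to 75.4% of those were left out for another lineage marker, and 41.3% to 62.2% carried Rgs5. Cdh5-positive barcodes without Gpihbp1, Rbp7, Gja5 or Vwf were left out as well and are not in these shares. The Gpihbp1, Rbp7, Gja5 and Vwf subsets overlap, with 44.1% to 54.5% of endothelial barcodes in more than 1 of them. The gates matched independent markers: 7 endothelial genes summed to 5416 and 8255 CPM in frail endothelium and 7168, 6413 and 5607 CPM in control endothelium, against 87.6 to 150.4 CPM in the Pdgfra lineage. Kept barcodes numbered 9351 and 10517 in the frail and 8650, 9854 and 12088 in the control libraries, with median depths of 5353 to 7005 UMIs. Of these, 0.909% to 1.23% carried a barcode also kept in another library.

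All 10 genes were highest in frail 1 and lowest in frail 2 of the 5 endothelial sets, with the 3 controls between them. Over the 10 genes together the endothelial level was 3784 CPM in frail 1 and 949 CPM in frail 2, against 1676, 2024 and 1419 CPM in control 1, 2 and 3. Of all 13535 genes tested in endothelium, 5.35% had this order of libraries. Since the genes were selected with the difference between frail 1 and frail 2 known, the count of 10 is a description and not a test. Iigp1 alone held 31.1% and 45.8% of the summed endothelial UMIs of the 10 genes in frail 1 and 2. In control 1, 2 and 3 it held 43.5%, 43.3% and 48.4%. In bulk sums of this kind, fewer cells making a transcript and less transcript per cell cannot be told apart by the sum alone, and the shares of positive barcodes are therefore given as well.

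**Figure D1:**
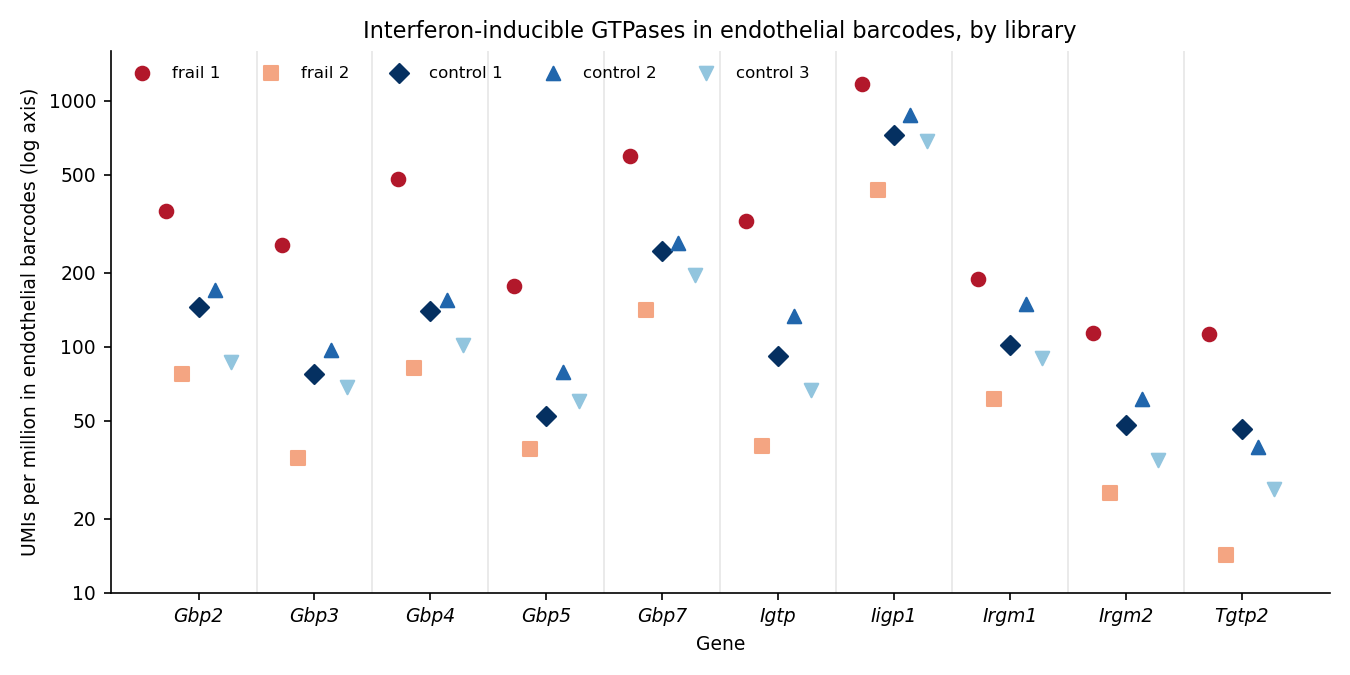
Level of each gene in endothelial barcodes (vertical, CPM on a log axis), with 1 point per library: frail libraries in red and orange on the left of each gene, controls in blue on the right. For every gene frail 1 is the highest point and frail 2 the lowest, from 1176 against 434 CPM for Iigp1 to 112 against 14.3 CPM for Tgtp2.

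Among the guanylate-binding proteins, Gbp4 differed most between frail 1 and the controls. It stood at 479.9 and 81.8 CPM in frail 1 and 2, against 139, 154 and 102 CPM in control 1, 2 and 3. At least 1 Gbp4 UMI was found in 75.5% (95% Wilson interval 73.2% to 77.6%) and 22.1% (20.4% to 23.8%) of frail endothelial barcodes and in 31.3%, 34.6% and 27.6% of control ones. In Pdgfra barcodes, which were deeper (medians of 7086 to 8580 UMIs, against 3321 to 4125 in endothelium), a Gbp4 UMI was found in 9.71% and 2.20% in the frail and 1.99%, 3.60% and 3.15% in the control libraries. The endothelial intervals, which cover counting error only, do not overlap between frail 1 and any other library, for a gene selected with this difference known. Frail 1 also had the deepest endothelial barcodes, at a median of 4125 UMIs. These shares, and those of Iigp1 below, are not at equal depth.

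Gbp2 stood at 356 and 77.9 CPM in frail endothelium, against 145, 169.7 and 86.6 CPM in control endothelium. Gbp3 stood at 259 and 35.5 CPM in frail endothelium, against 77.4, 97.4 and 68.7 CPM in control endothelium. Both are classical interferon-induced members of the chromosome 3 cluster, and in both frail 1 was more than 2-fold above the highest control (2.10-fold and 2.66-fold). Gbp5, which in macrophages promotes inflammasome assembly, stood at 177 and 38.5 CPM in frail endothelium, against 52.4, 79.4 and 60.5 CPM in control endothelium. Gbp7 stood at 595 and 141 CPM in frail endothelium, against 245, 263 and 196 CPM in control endothelium. The 2 groups overlapped for all 5 of these genes, because the frail libraries lay on either side of the controls.

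Of the regulators, Igtp had the widest gap between the frail libraries, 8.19-fold. It stood at 324 and 39.6 CPM in frail endothelium, against 92.002, 133 and 66.7 CPM in control endothelium. Irgm2, its overlapping neighbour with the near-identical promoter stretch, stood at 114 and 25.4 CPM in frail endothelium, against 48.2, 61.2 and 34.6 CPM in control endothelium. Irgm1, the master regulator of this family in mice, stood at 189 and 61.3 CPM in frail endothelium, against 102, 149.7 and 90.3 CPM in control endothelium. Its frail 1 value was 1.26 times that of control 2, the smallest margin among the 10 genes.

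Of the effectors, Iigp1 was detected in 86.3% and 43.8% of frail endothelial barcodes and in 59.9%, 64.2% and 58.6% of control ones. Its level was 1176 and 434 CPM in frail endothelium, against 729, 877 and 687 CPM in control endothelium, the narrowest gap between the frail libraries at 2.71-fold. Tgtp2 stood at 112 and 14.3 CPM in frail endothelium, against 46.4, 39.1 and 26.3 CPM in control endothelium, a gap of 7.88-fold between the frail libraries. Its near-identical copy Tgtp1 had the same order, with 76.4 and 5.83 CPM in frail endothelium and 20.3, 23.2 and 15.1 CPM in control endothelium. The 2 copies are read together here only as far as the assignment of shared reads allows.

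Several technical measures also differed between these sets. Endothelial barcodes held a median of 4125 and 3427 UMIs in frail 1 and 2, and 3644, 3321 and 3586.5 UMIs in control 1, 2 and 3, with median mitochondrial shares of 5.45% and 4.78%, and 4.40%, 4.36% and 5.33%. The 10% mitochondrial limit removed 1964 and 1134 barcodes from the frail libraries, and 1096, 804 and 1195 from the controls. At a limit of 5% frail 1 was still highest for all 10 genes, and frail 2 was lowest for 7 of them. The 6 myofibre markers summed to 69.4 and 369 CPM in frail endothelium, against 3219, 5191 and 3053 CPM in control endothelium, and none was at 0. The 6 macrophage markers summed to 26.9 and 59.8 CPM in frail endothelium, against 92.6, 98.5 and 58.7 CPM in control endothelium. The 5 T and NK cell markers summed to 2.56 and 9.84 CPM in frail endothelium, against 1.09, 44.4 and 4.27 CPM in control endothelium, with Cd3e and Cd3g at 0 in control 1 and Cd3g at 0 in control 3. The 6 mural markers summed to 1672 and 898 CPM in frail endothelium, against 1003, 909 and 871 CPM in control endothelium, the 4 lymphatic markers to 391 and 145 CPM, against 125, 469 and 359 CPM, and the 6 fibro-adipogenic markers to 1774 and 1676 CPM, against 1732, 2569 and 2770 CPM. None of these sums had frail 1 highest and frail 2 lowest, and their part in the result was not tested.

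The edgeR quasi-likelihood test of frail against control endothelium called none of the 10 genes, and it called 15 of 13535 genes (0.111%), all lower in frail libraries. All 10 fitted log2 fold changes were positive, with a median of 0.76 against 0.012 over all genes tested. DESeq2 also called none of the 10 (0.458% of the genes it tested were called), and none had an unadjusted edgeR p under 0.05 (4.37% of genes did). The changes reached from 0.10 (SE 0.41) for Iigp1 to 1.13 (SE 0.73) for Gbp4, each with an edgeR adjusted p of 1.00. Gbp4 averaged 281 ± 281 CPM in frail and 132 ± 26.9 CPM in control endothelium (SD, n = 2 and n = 3). No gene of the 10 had both frail libraries on one side of all controls, which 15.9% of the genes tested did. An exact one-sided permutation test of 2 libraries against 3 could not give a p below 0.1.

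Leaving out 1 frail library decided the sign. Without frail 1 all 10 changes were negative, from −0.75 (SE 0.29) for Gbp4 to −1.45 (SE 0.37) for Tgtp2, and none was called (17 of 13960 genes were, 0.122%). Without frail 2 all 10 were positive, from 0.68 (SE 0.25) for Iigp1 to 1.92 (SE 0.26) for Gbp4. Gbp3 and Gbp4 were then called (edgeR adjusted p = 0.0405 for both), among 0.331% of the genes tested. In both fits the lone frail library is assumed to vary as the controls do, and since the set was selected on the difference between the frail libraries these values describe it and do not support it.

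**Figure D2:**
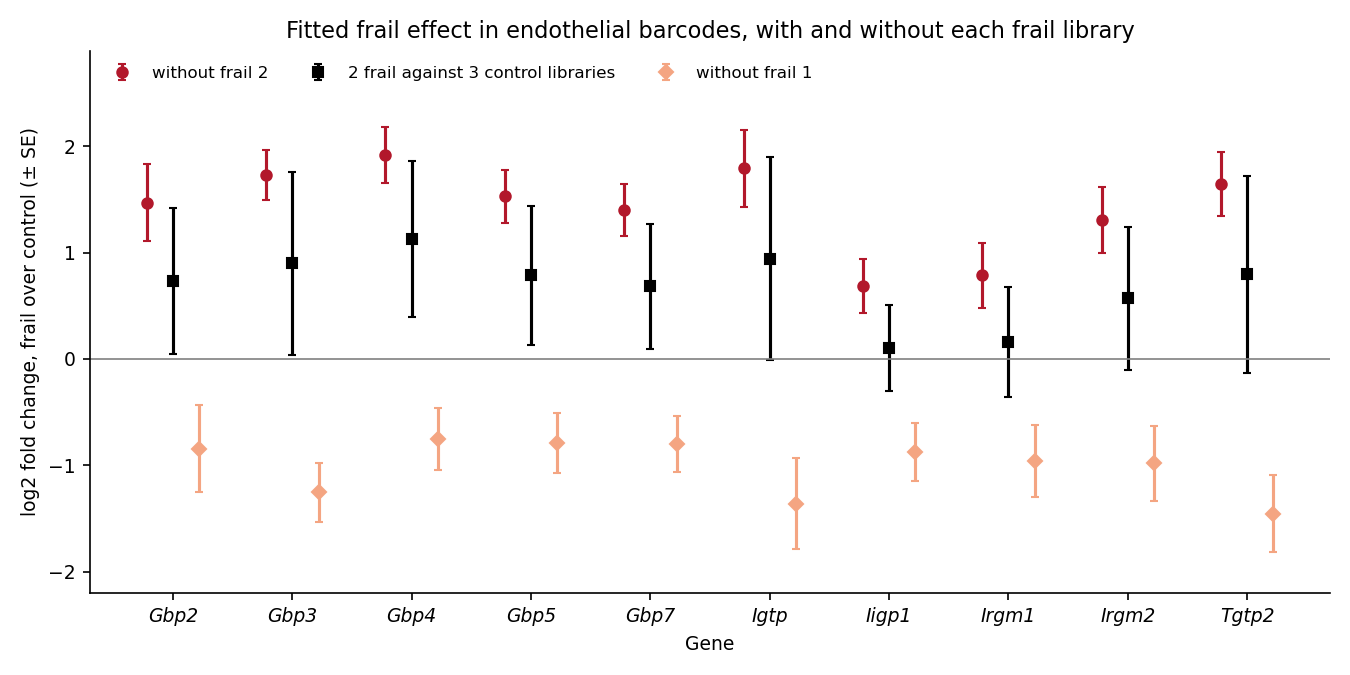
Fitted log2 fold change of frail over control endothelium (vertical, with standard errors) for each gene: without frail 2 in red, with all 5 libraries in black, and without frail 1 in orange. The red points lie between 0.68 and 1.92 and the orange points between −1.45 and −0.75, so that each gene changes sign with the frail library kept.

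The order of libraries held in each endothelial subset. In the Gpihbp1, Rbp7 and Vwf subsets all 10 genes were highest in frail 1 and lowest in frail 2, against 5.53%, 4.88% and 4.95% of the genes tested. In the Gja5 subset, with 149 and 140 frail barcodes and 70, 40 and 43 control barcodes, this held for 9 of 10 genes, against 3.63%. The exception was Gbp2, at 588 and 104 CPM in frail and 186, 228 and 101.9 CPM in control Gja5 barcodes. These counts are descriptions and not tests, since the genes were selected on the difference between the frail libraries. Nor do the subsets repeat the result independently: the Gpihbp1 subset alone held 6593 of the 7066 endothelial barcodes. With all 5 libraries edgeR called none of the 10 genes in any of the 4 subsets, and 0.135% of all genes tested in the Gpihbp1 subset and 0% in the Rbp7, Gja5 and Vwf subsets. None of the 10 had an unadjusted p under 0.05 in a subset, against 4.02%, 3.32%, 3.22% and 3.63% of all genes in the Gpihbp1, Rbp7, Gja5 and Vwf subsets. DESeq2 called none of them either, against 0.419%, 0.123%, 0.0284% and 0.115% of all genes.

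Without frail 2, several of the genes were called higher in the subsets of frail 1. In the Gja5 subset these were Gbp2, Gbp3, Gbp4, Gbp7, Igtp and Tgtp2, with log2 changes of 1.36 to 1.87 and edgeR adjusted p from 4.81e-06 for Gbp4 to 0.00423 for Tgtp2, where 0.654% of all genes were called. In the Rbp7 subset they were Gbp3, Gbp4, Gbp5, Gbp7 and Tgtp2 (edgeR adjusted p from 0.00515 for Gbp3 and Gbp4 to 0.0472 for Gbp7), against 0.241% of all genes. In the Gpihbp1 and Vwf subsets they were Gbp3 and Gbp4 (edgeR adjusted p of 0.0299 and 0.0233 in the Gpihbp1 subset, and of 0.0241 and 0.0291 in the Vwf subset), against 0.34% and 0.0903% of all genes. Without frail 1 all 10 changes were negative in each subset, with medians of −1.01 to −0.90 on the log2 scale. None of the 10 was then called, against 0.209%, 0.0769%, 0.264% and 0% of all genes in the Gpihbp1, Rbp7, Gja5 and Vwf subsets, and 9, 10, 8 and 8 of the 10 had an unadjusted edgeR p under 0.05, against 8.09%, 6.58%, 5.63% and 6.47% of all genes. As in the whole endothelium, 1 frail library stands against 3 controls in these fits and the genes were chosen for this difference, so the calls describe it only.

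The subsets differed in level for some of the genes and not for others, given here as ratios within a library with no test because their barcodes overlap. The genes were also chosen with these levels in view. Gbp3 was higher in the Gja5 than in the Gpihbp1 subset in all 5 libraries, by 2.07-fold and 1.97-fold in frail 1 and 2 and by 1.34-fold, 2.48-fold and 1.25-fold in control 1, 2 and 3. Higher in the Gja5 subset in all 5 libraries were also Gbp2 (1.14-fold to 1.89-fold), Gbp5 (1.35-fold to 2.94-fold), Irgm1 (1.30-fold to 1.78-fold), Irgm2 (1.29-fold to 1.58-fold) and Igtp (1.32-fold to 1.92-fold). The ratio for Gbp4, Gbp7, Iigp1 and Tgtp2 lay above 1 in 2 of 5 libraries each, within 0.77 to 1.37. The endothelial marker sum gave 0.94 to 1.13. Depth differed too, with medians of 8827 and 6972 UMIs in frail and 6614.5, 6280.5 and 6640 UMIs in control Gja5 barcodes, against 3322 to 3887 in the Gpihbp1 subset.

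After each barcode was thinned to 2000 UMIs, Gbp3 was found in 54.8% and 13.4% of frail and 23.1%, 41.2% and 17.1% of control Gja5 barcodes, against 34.8% and 6.43% of frail and 12.6%, 17.1% and 12.1% of control Gpihbp1 barcodes. For Gbp3 a higher share in Gja5 barcodes was thus also seen at equal depth in all 5 libraries. Only 65, 34 and 41 thinned Gja5 barcodes stood behind the shares of control 1, 2 and 3, so small gaps there are uncertain. The other genes higher in the Gja5 subset are not given at equal depth here. In the Vwf subset the same 6 genes and Gbp4 were above the Gpihbp1 subset in all 5 libraries, by most for Gbp5 (1.30-fold to 1.79-fold) and in the narrowest range for Igtp (1.25-fold to 1.28-fold). Tgtp2 was above it in 1 of 5. The Rbp7 subset differed least, with all ratios between 0.84 and 1.25.

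**Figure D3:**
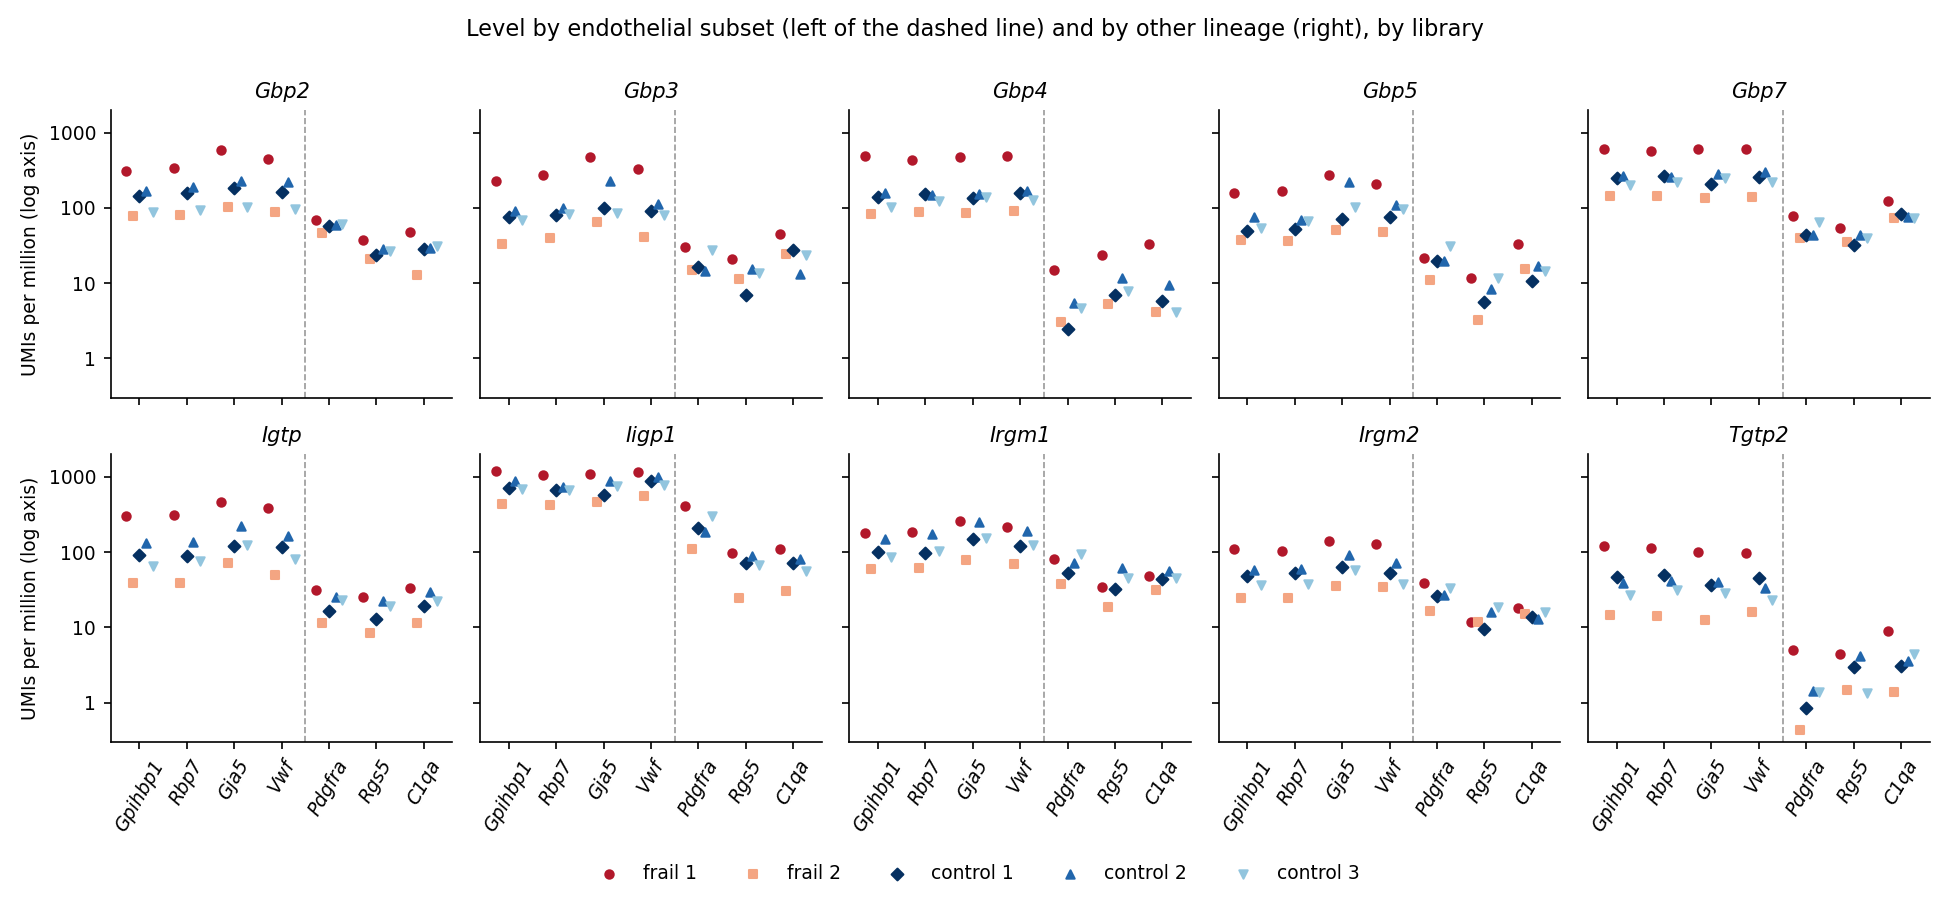
Level of each gene (1 panel each, CPM on a log axis) in 4 endothelial subsets left of the dashed line and in 3 other lineages right of it, with 1 point per library coloured as named below the panels. From endothelium to the Pdgfra lineage Gbp4 and Tgtp2 drop most of the 10 genes in each library (at least 21.9-fold and 18.9-fold), and in control 3 Irgm1 does not drop (0.95-fold).

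Outside endothelium the levels were lower for nearly all genes and libraries, to very different degrees. The genes were chosen with these levels in view, so the ratios between lineages are descriptions and not tests. Gbp4 was 32.5-fold and 27.1-fold higher in endothelium than in the Pdgfra lineage in frail 1 and 2, and 55.8-fold, 28.6-fold and 21.9-fold higher in control 1, 2 and 3. Tgtp2 was 22.4-fold and 33.2-fold higher in the frail libraries, and 53.9-fold, 27.3-fold and 18.9-fold higher in the controls, on 6 or more UMIs in the Pdgfra lineage. Irgm1 was 2.30-fold and 1.61-fold higher in the frail libraries, and 1.93-fold, 2.07-fold and 0.95-fold in the controls, so that in control 3 endothelium was not above the Pdgfra lineage. Iigp1 was 2.30-fold to 4.67-fold higher than in the Pdgfra lineage. It stood there at 409 and 111 CPM in the frail libraries, against 207, 188 and 299 CPM in the controls.

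Transcripts free in the suspension can give UMIs in barcodes of other cell types, and the endothelial marker sum is used here as a floor for them. Free transcripts were not measured directly, and other sources of these UMIs were not told apart from them. In the Pdgfra lineage the endothelial marker sum stood at 2.01% and 1.82% of its endothelial level in frail 1 and 2, and at 1.22%, 2.07% and 1.76% in control 1, 2 and 3. Gbp4 stood at 1.79% to 4.57% of its own endothelial level there, and Tgtp2 at 1.85% to 5.30%, nearest to that floor though above it in each library. The other 8 genes stood at 9.55% to 105.6%, above the floor in all 5 libraries. In the Rgs5 lineage the floor was higher, 5.17% to 8.36%, and 6 of the 10 genes lay at or under it in frail 1, 2 in frail 2, and 1, 0 and 0 in control 1, 2 and 3. In frail 1 these were Gbp3 (8.20%), Gbp4 (4.99%), Gbp5 (6.70%), Iigp1 (8.18%), Igtp (7.91%) and Tgtp2 (3.96%), against a floor of 8.36%. In frail 2 they were Gbp4 and Iigp1, and in control 1 Gbp4. Gbp2, Gbp7, Irgm1 and Irgm2 were above the floor in all 5 libraries, Irgm1 at 18.3% to 50.4%. In the C1qa lineage the floor was 1.69% to 4.32%, and all 10 genes were above it in all 5 libraries.

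**Figure D4:**
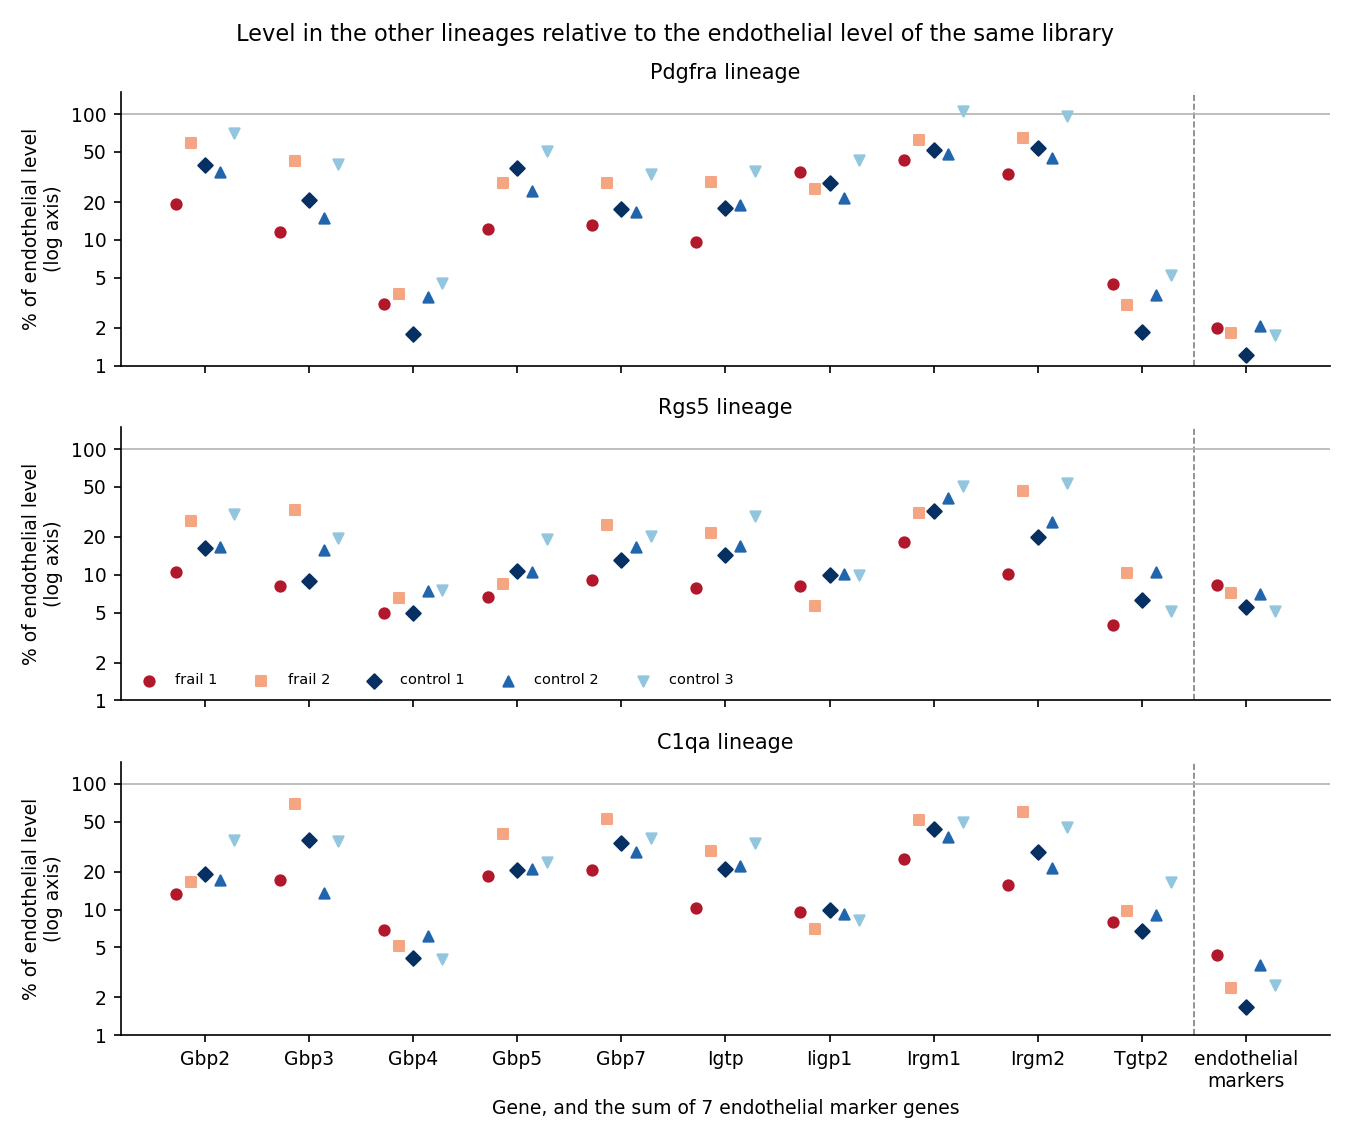
Level in the Pdgfra, Rgs5 and C1qa lineages as a percentage of the endothelial level of the same library (vertical, log axis), for each gene and, right of the dashed line, for the sum of 7 endothelial markers, with 1 point per library. In the Pdgfra panel Gbp4 and Tgtp2 lie at 1.79% to 5.30%, near the markers at 1.22% to 2.07%, while Irgm1 and Irgm2 reach 105.6% and 97.0% in control 3.

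In the other lineages the sum of the 10 genes was also higher in frail 1 than in frail 2, and fewer of the genes had the full order of libraries. Summed over the 10 genes, the Pdgfra lineage held 779 and 292 CPM in frail 1 and 2, against 442, 456 and 642 CPM in the controls. The Rgs5 lineage held 321 and 141 CPM in the frail libraries, against 206, 299 and 253 CPM in the controls. Relative to endothelium of the same library that is 8.50% in frail 1, where the marker floor was 8.36%. In frail 2 it is 14.9%, where the floor was 7.20%. The sum in frail 1 was thus close to the floor, and no difference between the frail libraries is read for the Rgs5 lineage. The C1qa lineage held 499.9 and 221 CPM in the frail libraries, against 308, 328 and 290.3 CPM in the controls. The full order, frail 1 highest and frail 2 lowest, was found for 6 of 10 genes in the Pdgfra lineage (5.77% of genes tested), 5 in the Rgs5 lineage (3.2%) and 4 in the C1qa lineage (5.25%). These counts are descriptions, since the genes were selected on the difference between the frail libraries. In the Rgs5 lineage 6 of the 10 genes also lay at or under the marker floor in frail 1. Gbp5 and Irgm1 in the Pdgfra lineage were not highest in frail 1, which held 21.6 and 82.1 CPM, but in control 3, which held 31.0 and 95.4 CPM. Fitted without frail 1, all 10 changes in the Pdgfra lineage were negative, and without frail 2, 9 of 10 were positive.

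Of the 10 genes edgeR called none for frail against control in these lineages, and 0.00659%, 0% and 0% of all genes tested in the Pdgfra, Rgs5 and C1qa lineages. None of the 10 had an unadjusted p under 0.05, against 4.77%, 6.07% and 4.36% of all genes, and DESeq2 called none, against 0.343%, 0.756% and 0.328%. The largest fitted changes there were those of Gbp4 (log2 1.10, SE 0.67, in the Pdgfra lineage and 1.48, SE 0.82, in the C1qa lineage; edgeR adjusted p of 0.997 and 1.00) and Tgtp2 in the Pdgfra lineage (log2 1.16, SE 0.85; edgeR adjusted p = 0.997). Whether the frail effect differed between endothelium and another lineage was tested with limma on the within-library difference of log2 CPM. It called none of the 10 genes against Pdgfra, Rgs5 or C1qa (smallest adjusted p of the 10: 0.999, 0.850 and 0.999), against 0.00767%, 0% and 0% of all genes. At an unadjusted limma p under 0.05 there were 0, 3 and 0 of the 10 genes against Pdgfra, Rgs5 and C1qa, where 4.14%, 4.89% and 4.89% of all genes were. The 3 against Rgs5 were Iigp1, Irgm1 and Gbp5, with differences of 0.60, 0.81 and 0.79 on the log2 scale. In the Rgs5 lineage Iigp1 and Gbp5 lay under the marker floor in frail 1, and Iigp1 also in frail 2. No difference between these lineages is therefore read from these values. A p above the threshold does not show that the effects were alike.

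Single barcodes often carried several of the transcripts. In endothelial barcodes thinned to 2000 UMIs, a mean of 4.06 and 1.21 of the 10 genes was detected in frail 1 and 2, against 1.89, 2.26 and 1.74 in control 1, 2 and 3. At least 3 of the genes were detected in 78.4% and 14.1% of frail endothelial barcodes, and in 30.2%, 39.5% and 24.9% of control ones. None of the 10 was detected in 4.92% and 34.1% of frail barcodes, and in 21.9%, 18.2% and 22.4% of control ones. The median endothelial barcode held 7 UMIs of the 10 genes in frail 1 and 1 in frail 2, against 2, 3 and 2 in control 1, 2 and 3. The difference was thus not confined to a few barcodes, though the set was selected on it. The tenth of barcodes with the most held 24.8% of the summed UMIs in frail 1, against 44.0% in frail 2 and 35.1% to 39.9% in the controls. Such a share falls as the mean count rises (8.04 UMIs in frail 1 and 1.95 in frail 2), so it does not show how the difference is spread. In the Pdgfra lineage at least 3 genes were detected in 9.80% and 1.54% of frail barcodes, and in 4.21%, 3.95% and 7.73% of control ones.

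**Figure D5:**
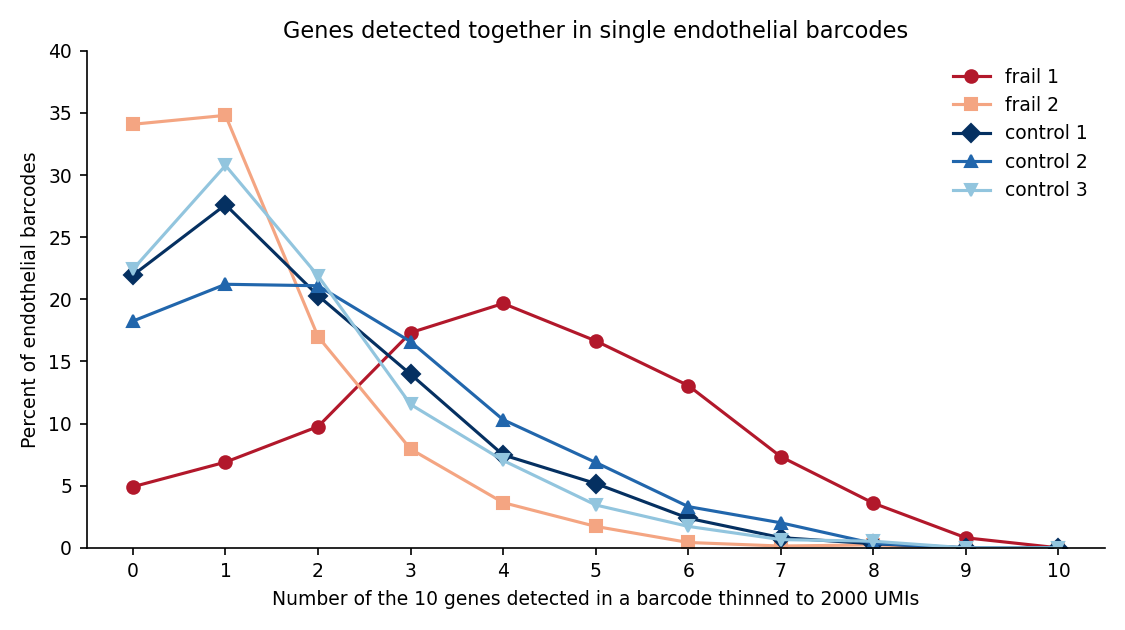
Percent of endothelial barcodes, each thinned to 2000 UMIs, in which 0 to 10 of the genes were detected, with 1 line per library. The frail 1 line peaks at 4 genes (19.7% of barcodes), the frail 2 and control 1 to 3 lines at 1 gene (34.8%, 27.6%, 21.2% and 30.8%).

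Within a library the genes varied together across endothelial barcodes, weakly in these sparse counts. The correlation of each gene with the sum of the other 9, a description across barcodes of 1 animal, was highest for Iigp1, at 0.415 and 0.283 in the 2 frail libraries, against 0.401, 0.407 and 0.339 in the 3 controls. It was 0.14 to 0.22 for Irgm2, which had few UMIs per barcode. Outside the 2 families, 4524 genes were ranked by likeness to the summed GTPases across Gpihbp1 barcodes, as the median of 5 correlations, 1 per library. This ranking leans towards likeness to Iigp1, which had a median correlation of 0.80 with the sum, against 0.51 for Gbp7. The first 12 were Ifit1 (0.32), Cd274 (0.25), Rsad2 (0.23), Parp14 (0.23), Irf1 (0.22), Isg15 (0.22), Tap1 (0.20), Ifitm3 (0.20), Flt1 (0.20), Slfn5 (0.19), Fosb (0.19) and Ifi203 (0.19). Nearly all are known interferon targets, Cd274 encoding the checkpoint ligand PD-L1 and Tap1 a peptide transporter of antigen presentation. Flt1, a VEGF receptor, and Fosb, an immediate early factor, are not, and they varied between libraries (Fosb −0.041 in frail 1 and 0.18 to 0.25 in the others). The 99th percentile over all 4524 genes was 0.13, and correlations this weak in sparse counts were read no further.

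The other measured members of the 2 families had the same order in part. Of 18 found, 14 reached 5 CPM in an endothelial set. Of these 14, 13 were highest in frail 1 and 9 were also lowest in frail 2, against the 5.35% given above. Ifi47, counted among them, was added to the family list after its values were seen. The lists were chosen with earlier results of these data known, so these counts are descriptions and not tests. Gm12250, known as Irgb10, an effector that ruptures bacteria, stood at 177 and 3.31 CPM in frail endothelium, against 14.9, 35.5 and 16.6 CPM in control endothelium. Ifi47, also called Irgd, stood at 168 and 32.8 CPM in frail endothelium, against 62.2, 79.8 and 48.9 CPM in control endothelium. Gbp6, which shares 88.9% of the compared stretches with other genes, stood at 32.9 and 4.82 CPM in frail endothelium, against 8.999, 7.05 and 8.28 CPM in control endothelium. Gm4951, an immunity-related GTPase near Iigp1 on chromosome 18, stood at 75.3 and 12.1 CPM in frail endothelium, against 28.1, 29.3 and 23.8 CPM in control endothelium. Gbp9 (166 and 74.0 CPM in frail endothelium, 86.4, 66.7 and 68.7 CPM in control endothelium) and 9930111J21Rik2 (247 and 147 CPM in frail endothelium, 144, 117 and 212 CPM in control endothelium) were highest in frail 1, but frail 2 was not lowest.

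F830016B08Rik stood at 25.1 and 5.62 CPM in frail endothelium, against 9.77, 8.87 and 10.5 CPM in control endothelium, and Gvin1 at 38.9 and 7.73 CPM in frail endothelium, against 22.7, 15.9 and 12.5 CPM in control endothelium. Gbp10 and Gbp8 reached 6.46 and 10.7 CPM in frail 1 and stayed at or below 2.27 CPM in every other library. Of the compared stretches, 100% of those of Gbp10 and of Gvin1 and 66.0% of those of 9930111J21Rik2 also occur in other genes. The values of these genes are therefore uncertain too. Irgq, a family member not known to be induced by interferons, was lowest in frail 1, at 6.10 and 10.3 CPM in frail endothelium, against 8.84, 9.33 and 10.8 CPM in control endothelium. None of the 14 family genes tested was called, against 0.111% of all genes tested, and 13 of 14 had a positive fitted change (median log2 0.69, against 0.012 over all genes). Of these, Gbp8 had the smallest p (log2 1.92, SE 0.83; edgeR adjusted p = 1.00).

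Among the ligands, interferon gamma transcripts (Ifng) did not have the order of the GTPases. Over all kept barcodes Ifng stood at 1.76 and 5.78 CPM in frail 1 and 2, against 0.649, 0.677 and 3.29 CPM in control 1, 2 and 3. Frail 2, where the 10 genes were lowest, thus had the highest Ifng level, from 47 positive barcodes against 22 in frail 1 and 12, 20 and 45 in the controls. A single barcode held 51 of 119 Ifng UMIs in frail 1 and 40 of 390 in frail 2. In control 1, 2 and 3 it was 13 of 43, 11 of 47 and 38 of 290. Which interferon acted on these cells was not tested. Ifnb1, which encodes interferon beta, was found in 17 and 1 frail barcodes with 86 and 1 UMIs, 36 of them in 1 barcode of frail 1, and in 3, 4 and 17 control barcodes with 4, 5 and 42 UMIs. Its level of 1.27 and 0.0148 CPM in frail 1 and 2, against 0.0603, 0.0720 and 0.477 CPM in the controls, had the order of the GTPases, on a single UMI in frail 2. Of the other 7 ligand genes, Ifna4 and Ifnk had at most 2 UMIs in a library, and the rest none in any, which allows up to 0.0340 to 0.0452 CPM (3 counts) for each. Barcodes with at least 2 T or NK cell markers, among which 13 of 22 and 33 of 47 Ifng-positive frail barcodes fell, were 0.342% and 0.580% of the kept barcodes in frail 1 and 2, against 0.289%, 0.558% and 1.37% in the controls.

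The receptors and their kinases mostly did not share the order of the GTPases. Of 8 genes at 5 CPM or more in endothelium, 1 (the kinase Jak1) was highest in frail 1 and lowest in frail 2, against 5.35% of all genes tested. None was called, against 0.111% (5 of 8 positive, median log2 0.12 against 0.012). The order counts of the lists use a limit of 5 CPM in a library, and the shares over all genes use the filter of the test. All these list counts are descriptions and not tests, since the lists were chosen with earlier results of these data known. Ifngr1, the ligand-binding chain of the interferon gamma receptor, stood at 231 and 308 CPM in frail endothelium, against 283, 339 and 237 CPM in control endothelium. Ifnar2, a chain of the type I receptor and the receptor gene with the smallest p, stood at 77.5 and 115 CPM in frail endothelium, against 76.2, 73.2 and 66.7 CPM in control endothelium (log2 0.41, SE 0.19; edgeR adjusted p = 1.00).

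Of the transcription factors of the response, 5 of 9 had the full order, against 5.35% of all genes tested, again as a description. None was called, against 0.111% (7 of 9 positive, median log2 0.23 against 0.012). Stat2, which acts in the type I response, stood at 136 and 59.1 CPM in frail endothelium, against 67.6, 59.8 and 78.0 CPM in control endothelium. It was above all controls in frail 1 and slightly below them in frail 2. Irf1 was an exception, at 652 and 314 CPM in frail endothelium, against 531, 518 and 683 CPM in control endothelium. Irf8, a factor best known from myeloid cells, had the smallest p in the family and interferon lists, at 48.8 and 21.9 CPM in frail against 85.6, 78.0 and 49.9 CPM in control endothelium (log2 −0.999, SE 0.41; edgeR adjusted p = 1.00). Both frail values were below every control, though 48.8 CPM in frail 1 was close to the lowest control at 49.9 CPM. Of all genes tested in endothelium, 15.9% had both frail libraries apart from all controls in either direction. The macrophage marker sums given above were also lower in frail 1 than in any control, and their part in the Irf8 values was not tested.

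Among targets usually tied to interferon gamma, 12 of 19 had the full order, against 5.35% of all genes tested, again as a description. None of 20 was called, against 0.111% (13 of 20 positive, median log2 0.16 against 0.012). Several antigen-processing genes were among those 12. Psmb8, an immunoproteasome subunit, stood at 639 and 207 CPM in frail endothelium, against 337, 325 and 227 CPM in control endothelium. Cd274 stood at 185 and 44.1 CPM in frail endothelium, against 66.4, 105 and 53.7 CPM in control endothelium. None of the 3 chemokines listed, Cxcl9, Cxcl10 and Cxcl11, was highest in frail 1. Cxcl9 stood at 132 and 48.0 CPM in frail endothelium, against 112, 180 and 84.1 CPM in control endothelium, and Cxcl11 was below 5 CPM in every library. Cxcl10 stood at 109 and 26.3 CPM in frail endothelium, against 128, 252 and 142 CPM in control endothelium, so that all controls were above frail 1. Socs1, an inhibitor of the pathway, stood at 102.7 and 65.0 CPM in frail endothelium, against 102.9, 145 and 89.3 CPM in control endothelium. Over the 6 inhibitors listed, 1 had the full order and none was called, against the same shares of all genes (2 of 6 positive, median log2 −0.039).

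Among targets usually tied to type I interferons, 9 of 18 had the full order, against 5.35% of all genes tested, again as a description. None of 18 tested was called, against 0.111% (12 of 18 positive, median log2 0.12 against 0.012). Bst2, which tethers viruses to the membrane, stood at 1102 and 286 CPM in frail endothelium, against 540.4, 631 and 428 CPM in control endothelium. Ifit2 stood at 136 and 30.0 CPM in frail endothelium, against 57.9, 56.2 and 65.5 CPM in control endothelium. Ifit1, the gene most like the GTPases across single barcodes, stood at 186 and 51.8 CPM in frail endothelium, against 195, 371 and 125 CPM in control endothelium, so that frail 1 was below 2 of the 3 controls. The rank of a gene across barcodes within a library and its order across libraries were thus different measures. None of the 7 endothelial markers had the order of the GTPases.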

How the data were processed

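Transcripts of 5 tibialis anterior libraries (2 frail, 3 control, 1 mouse each) were deposited as matrices of counts, one for each library, of unique molecular identifiers by gene and barcode. Cell Ranger 7.0.0 produced them, per the file headers, and the submitters' processing notes name GRCm38, Seurat 4.1.2 and bcl2fastq 5.01. Strand setting and annotation: not given in the sources used here. As deposited, every barcode held at least 500 UMIs, with 9791 to 13303 barcodes and 68170531 to 90942121 UMIs a library.

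Barcodes with under 200 genes or over 10% mitochondrial UMIs were left out. A marker counted from 1 UMI, and doublets were treated only by leaving out barcodes with markers of more than 1 lineage. UMIs were summed per library and set, so that the library is the replicate, and frail was compared with control by edgeR 4.0.16 (TMM scaling, filterByExpr, robust quasi-likelihood test, Benjamini-Hochberg adjustment over all genes, threshold 0.05). The difference of the frail effect between sets was tested with limma 3.58.1. To compare shares at equal depth, barcodes were thinned to 2000 UMIs and shallower ones left out (117 and 259 of the frail endothelial barcodes, and 153, 156 and 114 of the control ones). Intervals are 95% Wilson intervals, and the limit allowed by a count of 0 is 3 counts. R 4.3.3, Python 3.11.15 and scanpy 1.11.5 were used, and the fits were tested on simulated data.

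The 10 genes, the lists and the named genes were chosen with earlier results of these data known. The named genes were all 10, the other family members, the 3 genes of the family and interferon lists with the smallest p in endothelium (Irf8, Gbp8 and Ifnar2, since none was called; the cell type marker lists, in which Dpt, Tnnt3 and others had smaller p, were not counted) and the 12 genes most like the summed GTPases. Ifi47 was added to the family list after its values were seen. Other list genes given as examples were chosen after their values were seen, and 1 gene of the list of transcription factors is not reported here and was left out of its counts. Gene names were matched to the annotation for 94.1% of the 55357 identifiers. Whether the libraries come from separate preparation days is not given, and p-values measure the spread between these animals.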

Additional observations from a re-analysis of the deposited data

How the results depend on the processing

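In endothelium edgeR called 15 genes for frail against control, against 115 with DESeq2, 251 without the filter on low counts, 0 with 2 UMIs required of a marker, 6 where lineages may overlap, and 71 with the replicate block. In the Gpihbp1 subset it called 18, against 104, 222, 0, 0 and 40 in the same order. For the Rbp7, Gja5, Vwf, Pdgfra, Rgs5 and C1qa sets it called 0, 0, 0, 1, 0 and 0 genes. DESeq2 called 27, 5, 25, 94, 193 and 78 there, and edgeR without the filter called 86, 54, 121, 277, 69 and 40. With the replicate block it called 41, 24, 73, 170 and 72 in the Gja5, Vwf, Pdgfra, Rgs5 and C1qa sets. With overlapping lineages it called 1, 4 and 8 in the Rbp7, Gja5 and Vwf sets, with 2 UMIs for a marker 6 and 5 in the Rbp7 and Rgs5 sets, and with a 5% mitochondrial limit 1, 2 and 2 in the Rbp7, Gja5 and Pdgfra sets. Leaving out 1 library at a time gave 1 to 46 genes in endothelium (1 without control 3, 46 without frail 2), 3 to 47 in the Gpihbp1, 0 to 28 in the Rbp7, 0 to 44 in the Gja5, 0 to 14 in the Vwf, 0 to 4 in the Pdgfra, 0 to 90 in the Rgs5 and 0 to 39 in the C1qa set, the last 2 highest without control 3. The cause of these differences was not tested.

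For the 10 genes in endothelium the fitted changes stayed positive with DESeq2, other size factors, no filter, overlapping lineages, 2 UMIs for a marker, a 5% mitochondrial limit, Scrublet doublets removed and without each control. Without frail 1 the log2 changes became −0.85 for Gbp2, −1.26 for Gbp3, −0.75 for Gbp4, −0.79 for Gbp5, −0.80 for Gbp7, −0.87 for Iigp1, −0.96 for Irgm1, −0.98 for Irgm2, −1.36 for Igtp and −1.45 for Tgtp2. Without frail 2 they were 1.47 for Gbp2, 1.73 for Gbp3, 1.92 for Gbp4, 1.53 for Gbp5, 1.40 for Gbp7, 0.68 for Iigp1, 0.79 for Irgm1, 1.31 for Irgm2, 1.79 for Igtp and 1.64 for Tgtp2. With the replicate block they became −0.18 for Iigp1, −0.21 for Irgm1, −0.0035 for Irgm2 and −0.039 for Tgtp2. The replicate numbers were not taken to pair the animals. Same-numbered libraries deviated from their group means with correlations of −0.011 and 0.067 in endothelium. The deviations of 2 frail libraries mirror each other, so crossed numbers gave −0.067 (frail 1 with control 2) and 0.011 (frail 2 with control 1). These correlations therefore cannot decide whether the animals were paired. The summed level in control 2 was 1713 CPM with overlapping lineages, against 2024 CPM. Of the 50 shares of positive endothelial barcodes (10 genes in 5 libraries), all were lower when barcodes were thinned to 2000 UMIs, and 42 were higher with overlapping lineages by more than their counting interval. Thinned to 1000 UMIs, at least 3 genes were found in 51.4% and 5.43% of frail endothelial barcodes and in 15.0%, 18.8% and 11.5% of control ones. Depth limits the Gja5 subset most, with 9 to 1602 UMIs a gene and library.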
